A study of Homo sapiens with 15 samples.

Results

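The epithelial integrin subunits described here are the 10 integrin genes ITGA2, ITGA3, ITGA5, ITGA6, ITGAV, ITGB1, ITGB4, ITGB5, ITGB6 and ITGB8. Their probes were found by the RefSeq accession printed for each probe in the scanner files, which gave 11 probes for the 10 genes out of 19483 genes named on the array in the same way. ITGA6 had 2 probes, called probe 1 (A_23_P210176) and probe 2 (A_33_P3231447), and every other gene had 1. The cells were PE/CA-PJ41, an immortalised human oral squamous carcinoma line. The group labelled CYGB+ carried the pCMV6-Neo plasmid with the human cytoglobin cDNA, and the control group, NCE, carried the empty vector by its labels. The study elsewhere calls NCE un-transfected, and if so transfection and G418 selection would differ between the groups together with the transgene, and their effects cannot be told apart. Stable clones were picked by cloning ring under G418, and the study's methods describe the CYGB+ line as a single clone, so differences between clones and effects of cytoglobin cannot be told apart. RNA was collected on 3 occasions after 24 h in supplemented medium. NCE had 3 biological replicates of 3 arrays each and CYGB+ had 3 biological replicates of 2 arrays each, giving 15 arrays. The comparison asked which transcripts differ between cells with and without the cytoglobin transgene.

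Integrins are cell surface receptors made of an α and a β subunit that bind the extracellular matrix outside the cell and, through adaptor proteins, the cytoskeleton inside it. In squamous epithelium, α2β1 binds collagen, α3β1 and α6β4 bind laminin, α5β1 binds fibronectin, and α6β4 anchors the basal cell to the basement membrane in the hemidesmosome. The αv subunit pairs with several β subunits, and both αvβ6 and αvβ8 can release transforming growth factor-β from its latent complex. The subunits β4, β6 and β8 are each known with a single α partner, whereas β1 and αv pair with many.

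All values are log2 green intensities after background correction and quantile normalisation, as means over the arrays of each biological replicate, and each difference is CYGB+ minus NCE. A probe was called when limma gave an adjusted p under 0.05 over all 22328 probes tested. Values of one probe cannot be set against those of another as levels. The arrays had 48.9% to 57.3% of probes well above background. The lowest correlation between arrays of the same biological replicate was 0.928, for CYGB+ replicate 1, whose first array had a mean correlation of 0.928 with the other CYGB+ arrays. That figure was 0.969 to 0.988 for the other 14 arrays within their groups. The arrays lay on 2 slides. Slide 1 held 8 NCE arrays, and slide 2 held 1 NCE array, of replicate 1, and all 6 CYGB+ arrays. The median green background was 24.0 to 29.0 on slide 1 and 37.0 to 43.0 on slide 2, so slide and group could be told apart only through that single NCE array. The labels gave cyanine 3 (green) as the dye of every sample, whereas the study's methods gave the control the other dye. The labels were followed, and the red channel was not used, though 55.6% to 61.4% of its spots were well above background. By the study's methods the green signal would not come from control RNA. Which RNA each green value measured, and so every difference below, therefore rests on the labels.

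The probe for CYGB, the transfected gene, did not separate the groups. Its NCE replicates were at 11.85, 12.15 and 11.96 and its CYGB+ replicates at 11.38, 12.44 and 11.97, a difference of −0.05 ± 0.25 (SE, limma adjusted p = 0.913). It was above background on all 15 arrays, NCE arrays included. The study describes the parent line as not expressing cytoglobin, and reports a high level in the clone used by qPCR and in-cell ELISA. The signal of this probe in NCE, and its lack of a difference, are in conflict with that account, and the reason was not tested. Whether the probe lies within the transfected cDNA is not given in the sources used here. The labels were thus not borne out by this probe, and every direction below is between libraries labelled CYGB+ and NCE.

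Of the 11 integrin probes, 4 were lower in CYGB+ and 0 were higher, beside 5.32% of all tested probes that were lower and 5.5% that were higher, 10.8% in all. At an unadjusted limma p under 0.05, 6 integrin probes were lower and 0 higher. The share of all tested probes at that unadjusted p was not counted, and is at least the 10.8% called. The 4 probes called lower were those for ITGB8, ITGB4, ITGB6 and probe 2 of ITGA6. In 5 of the 11 probes, the 4 named and probe 1 of ITGA6, the 3 replicates of one group all lay above the 3 of the other, beside 33.3% of all probes. The median difference over the 10 genes, with the more intense probe of ITGA6, was −0.38, beside 0.0015 over all tested probes. The count of 4 lower probes was 1 with slide as a term, 0 on slide 2 alone and 0 by the methods' t-test, beside 2.01%, 0.00896% and 1.37% of all probes lower, with 2, 1 and 4 integrin probes lower at an unadjusted p under 0.05. Of the 9 integrin probes listed in the authors' deposited log2 values, 4 were lower, beside 4.52%. All 11 probes were well above background on all 15 arrays, so none owed its place in the test to one group.

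Promoter windows are shown for the subunits that were lower here or in the fit with the replicate block and whose window lies upstream of the gene. They are the 250 bases before the RefSeq start (GRCh38.p14), on the gene's strand, 5′ to 3′. Of the 10 genes, 8 were in the table used, and ITGA3 and ITGB4 were not listed there. Capitals mark matches, on either strand, to an AP-1 site (TGANTCA), a GC box (GGGCGG) or a TATA box (TATAAA). The ITGA2 window was chr5:52989102-52989351 on the plus strand, the ITGA6 window chr2:172427086-172427335 on the plus strand, before the more upstream of its listed starts, and the ITGB6 window chr2:160200273-160200522 on the minus strand.
ITGA2: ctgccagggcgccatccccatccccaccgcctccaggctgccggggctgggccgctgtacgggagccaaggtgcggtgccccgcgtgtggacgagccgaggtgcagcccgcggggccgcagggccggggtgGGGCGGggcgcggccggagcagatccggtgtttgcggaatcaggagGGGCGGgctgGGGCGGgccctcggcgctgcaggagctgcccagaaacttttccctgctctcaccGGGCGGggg
ITGA6: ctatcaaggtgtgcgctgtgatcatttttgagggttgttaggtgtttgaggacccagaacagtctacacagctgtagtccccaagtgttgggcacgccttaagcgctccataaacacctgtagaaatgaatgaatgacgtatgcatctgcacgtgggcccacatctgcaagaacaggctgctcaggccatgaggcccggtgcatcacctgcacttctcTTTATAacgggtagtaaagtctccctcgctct
ITGB6: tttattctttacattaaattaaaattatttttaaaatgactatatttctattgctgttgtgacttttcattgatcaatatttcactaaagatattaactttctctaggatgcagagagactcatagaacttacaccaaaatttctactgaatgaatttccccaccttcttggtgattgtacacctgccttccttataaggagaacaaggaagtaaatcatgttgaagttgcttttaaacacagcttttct
The ITGA2 window had G or C at 191 of its 250 bases and held 4 GC boxes. The ITGA6 window had G or C at 127 bases and held 1 TATA box match, on the reverse strand. The ITGB6 window had G or C at 75 bases and held none of the 3 motifs. Over all 35116 windows of this length, 42.6% held a GC box, 10.72% a TATA box and 6.57% an AP-1 site. Beside these motifs, an E-box (CANNTG, not in capitals), which 61.8% of all windows held, matched 7 times in the ITGA6 window, 1 time in that of ITGB6 and 0 times in that of ITGA2. The windows shown for these genes, all lower in 1 or both fits, thus shared none of the motifs searched across all 3. That depends on which windows were shown. The listed ITGB8 window lay inside the gene and is not shown, and had G or C at 178 bases and 2 GC boxes. The other listed ITGA6 window also lay inside its gene, and had G or C at 179 bases and 3 GC boxes.

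ITGB8, the β subunit of the αvβ8 receptor for latent transforming growth factor-β, showed the clearest difference of the group. Its NCE replicates were at 8.54, 8.56 and 8.48 and its CYGB+ replicates at 7.24, 7.54 and 7.73. The highest CYGB+ replicate was 0.75 below the lowest NCE replicate. CYGB+ was lower by a log2 difference of −1.03 ± 0.13 (SE, limma adjusted p = 0.00765), or 49.1% of the NCE intensity. The first replicates differed by −1.31, the second by −1.02 and the third by −0.75. All 6 fits that left out 1 biological replicate kept the call, with differences of −1.14 to −0.89. On slide 2 alone the CYGB+ mean was −1.09 from the NCE array, which at 8.59 was close to the 8.52 of the same replicate on slide 1, and with slide as a term the difference was −1.09 (limma adjusted p = 0.00705). ITGB8 was the single integrin probe still called with that term, beside 2.01% of all probes lower. That fit ran over single arrays with 1 correlation between repeats, 0.17, for all probes. For ITGB8 the SD was 0.18 between biological replicates and 0.13 between repeats, so that p-value may be too small.

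ITGB6, the β subunit of αvβ6, a receptor that epithelia raise during wound repair and in carcinomas, also fell. Its NCE replicates were at 6.99, 7.17 and 7.30 and its CYGB+ replicates at 6.55, 6.70 and 6.77. The groups did not overlap, with a gap of 0.22. The difference was −0.48 ± 0.12 (SE, limma adjusted p = 0.0414), or 71.7% of NCE, and the same-numbered replicates differed by −0.53 to −0.44. The signal of this probe lay close to the background, and the size of its difference followed the background step, with −1.19 from the scanner's processed signal scaled to the 75th percentile. On slide 2 the difference from the lone NCE array was −0.32, and with slide as a term it was −0.37 (limma adjusted p = 0.281). It was called in 0 of the 6 limma fits that left out a replicate, where its adjusted p was 0.0539 to 0.156.

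The other β subunits that pair with αv did not pass the test. ITGB5, the β subunit of the vitronectin receptor αvβ5, had NCE replicates at 9.61, 9.54 and 9.49 and CYGB+ replicates at 9.57, 9.89 and 9.71, so that the groups overlapped. Its difference was 0.17 with a 95% interval of −0.08 to 0.43 (limma adjusted p = 0.351), and the sign turned to −0.20 when an outlier spot on 1 NCE array was kept. ITGAV, the shared α partner of β5, β6 and β8, was at 10.35, 10.52 and 10.75 in NCE and at 10.37, 10.72 and 10.84 in CYGB+. Its difference was 0.10 with an interval of −0.27 to 0.47 (limma adjusted p = 0.728). The partner subunit was thus not called where ITGB6 and ITGB8 were lower, and the difference between their changes was not tested.

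**Figure D1:**
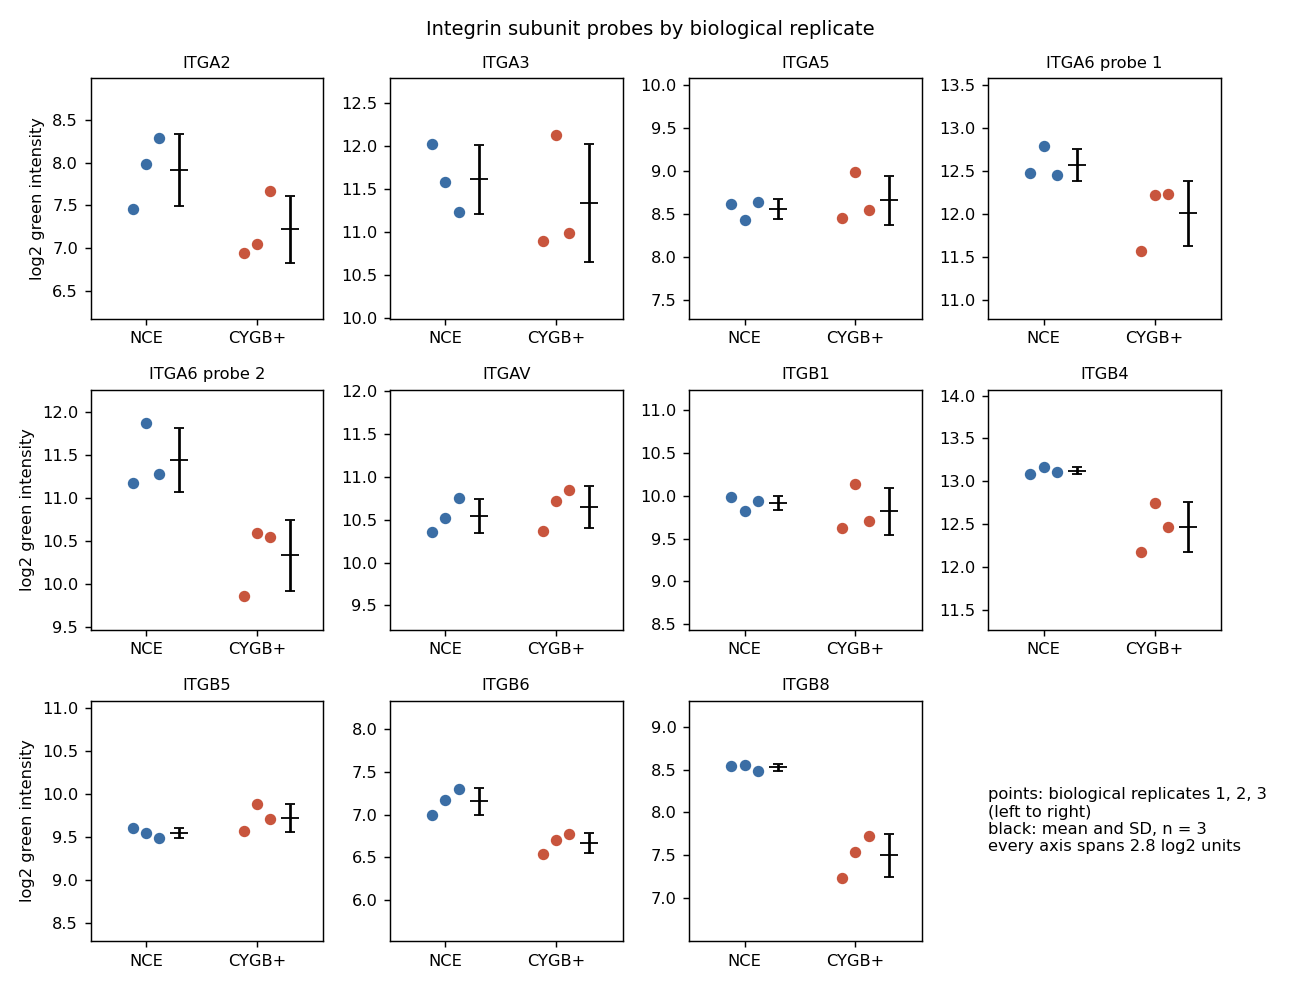
Log2 green intensity (vertical axis) of each of the 11 integrin probes in the biological replicates of NCE (blue) and CYGB+ (red), with the mean and SD of each group in black (n = 3) and axes that all span the same log2 range. The groups lie apart for ITGB8, ITGB6, ITGB4 and both ITGA6 probes and overlap for the other 6.

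ITGA6 and ITGB4 encode the subunits of α6β4, the laminin receptor of the hemidesmosome. For ITGB4 the NCE replicates were at 13.09, 13.17 and 13.11 and the CYGB+ replicates at 12.17, 12.75 and 12.47. All NCE replicates lay above all CYGB+ replicates, by at least 0.34. The difference was −0.66 ± 0.15 (SE, limma adjusted p = 0.0348), or 63.3% of NCE. NCE replicate 1, however, differed by −0.48 between its slide 2 and slide 1 arrays, the CYGB+ mean was −0.31 from that slide 2 array, and with slide as a term the difference was −0.29 (limma adjusted p = 0.896). Between repeat arrays of the same replicate the SD of ITGB4 was 0.42, and NCE replicate 3 ran from 12.54 to 13.47 on slide 1 alone. With 1 NCE array on slide 2, a slide shift and the spread of repeats cannot be told apart. ITGB4 was called in 2 of the 6 limma fits that left out a replicate, with differences of −0.80 to −0.51, and lost its call without any NCE replicate and without CYGB+ replicate 3.

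Probe 2 of ITGA6 was at 11.18, 11.87 and 11.29 in NCE and at 9.86, 10.60 and 10.55 in CYGB+. The groups lay 0.58 apart, and the difference of −1.11 ± 0.25 (SE, limma adjusted p = 0.0351) was 46.3% of NCE. It was called in 1 of the 6 limma fits that left out a replicate, the one without CYGB+ replicate 1, with differences of −1.24 to −0.87 over the 6. Probe 1 was at 12.47, 12.79 and 12.45 in NCE and at 11.57, 12.22 and 12.23 in CYGB+. It did not overlap either, with a gap of 0.22, but its difference of −0.57 ± 0.20 (SE, limma adjusted p = 0.117) did not pass the test. Both probes were thus lower in each CYGB+ replicate, and they differed in size and in the call.

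The gap between the ITGA6 probes themselves was compared within each replicate. Probe 1 minus probe 2 was 1.29, 0.92 and 1.16 in NCE and 1.71, 1.62 and 1.68 in CYGB+. The group means of 1.12 ± 0.19 and 1.67 ± 0.04 (SD, n = 3 each) differed by 0.54, with an exact two-sided permutation p of 0.1, the smallest that 3 against 3 allows. With slide as a term this difference was 0.10, and on slide 2 alone 0.08. For probe 2 the slide 2 array of NCE replicate 1 itself differed by −0.41 from its slide 1 arrays, and its difference between groups with slide as a term was −0.63 (limma adjusted p = 0.66), beside −0.53 for probe 1 (limma adjusted p = 0.669). The SD between repeat arrays of the same replicate was 0.38 for probe 2 and 0.33 for probe 1. Where on the ITGA6 transcripts either probe lies was not analysed here.

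CYGB+ replicate 1 was the lowest replicate for both ITGA6 probes and for ITGB4, and the array of that replicate that correlated least with the others was at 11.11 for probe 1, 9.16 for probe 2 and 11.67 for ITGB4. Its second array was at 12.02, 10.56 and 12.67. With the replicate taken from the second array alone, a choice made after the values were seen, the differences were −0.41 for probe 1 (limma adjusted p = 0.0461), −0.88 for probe 2 (0.0128) and −0.49 for ITGB4 (0.0125). All 3 were then called, so that 5 integrin probes were lower, beside 9.04% of all probes. ITGB8 was at −0.96 and ITGB6 at −0.44 in that fit and both stayed lower.

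**Figure D2:**
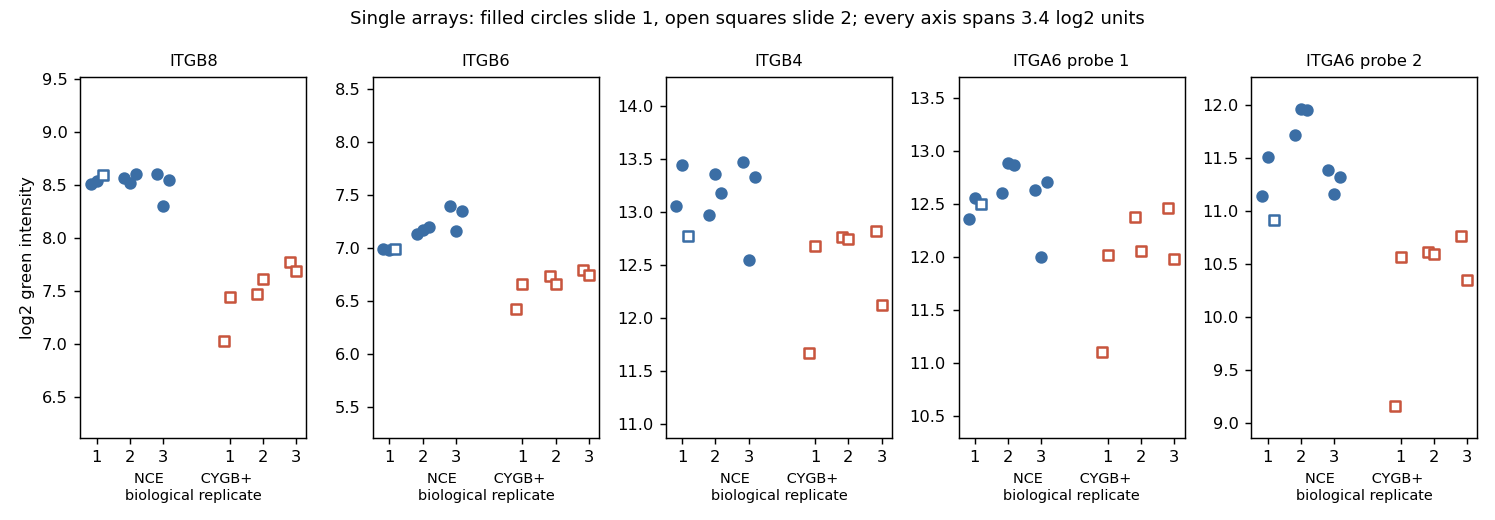
Log2 green intensity (vertical axis) of each single array, grouped by biological replicate (horizontal axis), for the 5 probes whose groups did not overlap, with slide 1 as filled circles, slide 2 as open squares, NCE in blue and CYGB+ in red. For ITGB8 the NCE array on slide 2 lies among the other NCE arrays, whereas for ITGB4 it lies at 12.77, inside the range of the CYGB+ arrays. The second array of NCE replicate 3, on slide 1, also lies inside that range for ITGB4, at 12.54.

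The α subunits that pair with β1 gave a mixed picture. ITGA2, the collagen-binding subunit of α2β1, was at 7.46, 7.98 and 8.29 in NCE and at 6.94, 7.06 and 7.66 in CYGB+. The groups overlapped, because NCE replicate 1 lay below CYGB+ replicate 3, and the difference of −0.69 ± 0.26 (SE, limma adjusted p = 0.137) did not pass. Within same-numbered replicates, however, CYGB+ was lower in all 3, with differences of −0.52, −0.92 and −0.63. With the replicate number as a block ITGA2 was lower (limma adjusted p = 0.0222), which made 5 integrin probes lower, beside 6.62% of all probes, and 0 higher. Replicates of different number also deviated together in some pairs, with correlations up to 0.29 beside 0.21 to 0.30 for the same number. With slide as a term it was at −0.49 (limma adjusted p = 0.637).

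ITGA3, the laminin-binding subunit of α3β1, had the widest spread of the group. It was at 12.02, 11.58 and 11.23 in NCE and at 10.89, 12.13 and 10.99 in CYGB+, and the highest and the lowest replicate were both CYGB+. The difference of −0.27 had a 95% interval of −1.10 to 0.55 (limma adjusted p = 0.659) and was 0.0051 when CYGB+ replicate 1 was taken from its second array. Between repeat arrays of the same replicate the SD of ITGA3 was 0.48, beside 0.56 between biological replicates.

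ITGA5, the α subunit of the fibronectin receptor α5β1, was at 8.62, 8.43 and 8.64 in NCE and at 8.45, 8.99 and 8.54 in CYGB+. The groups overlapped, and the difference of 0.10 had an interval of −0.27 to 0.46 (limma adjusted p = 0.727). ITGB1, the common β partner of these α subunits, was at 9.99, 9.82 and 9.94 in NCE and at 9.62, 10.13 and 9.70 in CYGB+. Its difference was −0.10 with an interval of −0.44 to 0.25 (limma adjusted p = 0.711). The probes of ITGB1 and ITGAV were printed 10 times on each array, yet the SD between biological replicates, 0.20 for ITGB1 and 0.22 for ITGAV, lay near the median of 0.22 over the integrin probes. For ITGA5 and ITGB1 the CYGB+ replicates lay on both sides of the NCE mean.

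**Figure D3:**
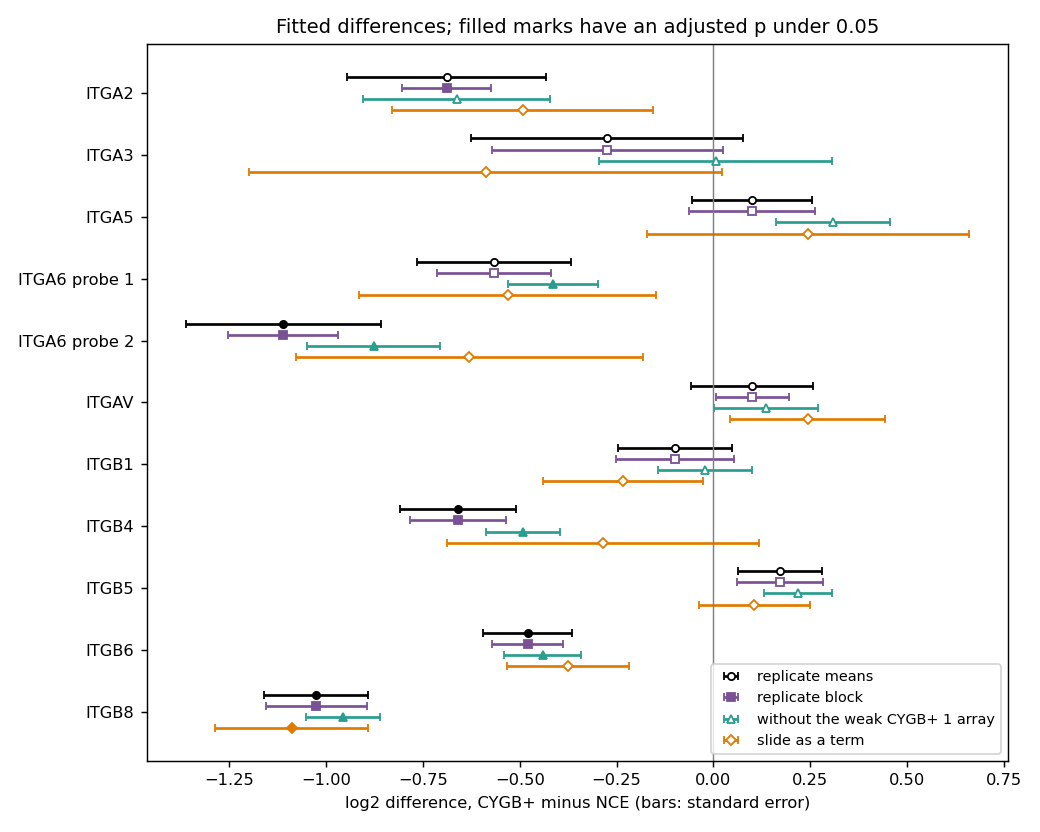
Fitted log2 difference, CYGB+ minus NCE (horizontal axis), with its standard error for each integrin probe in 4 fits, with filled marks where the adjusted p was under 0.05. ITGB8 is filled in all 4, whereas ITGB4, ITGB6 and ITGA6 probe 2 are open with slide as a term and ITGA2 is filled with the replicate block alone.

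Of the 16 other integrin genes, 7 had a probe above background on enough arrays to be tested. Of these, 1 was called, ITGB2, beside 10.8% of all tested probes. ITGB2, the β2 subunit of the leukocyte integrins, was at 7.32, 7.04 and 7.01 in NCE and at 7.63, 7.78 and 7.62 in CYGB+. It was higher by 0.55 ± 0.12 (SE, limma adjusted p = 0.0283). It was called in 2 of the 6 limma fits that left out a replicate. With slide as a term ITGB2 was at 0.17 (limma adjusted p = 0.831). The probes of its α partners ITGAL, ITGAX and ITGAD were well above background on 0 arrays, and that of ITGAM on 2 NCE and 3 CYGB+ arrays. ITGB3, the β subunit of αvβ3, and ITGA8, another partner of β1, were not well above background on any array either.

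Among 20 matrix ligands of integrins, all tested, 3 genes were higher and 2 lower by their most intense probe. NPNT, which encodes nephronectin, a ligand of α8β1, was well above background on 1 of 9 NCE arrays and 6 of 6 CYGB+ arrays, so it entered the test through CYGB+, and NCE lay at or near the background. It was higher in CYGB+ (limma adjusted p = 0.00257), but the size of the difference was set by the background step, at 2.23 here and 5.71 from the processed signal scaled to the 75th percentile. SPP1, which encodes osteopontin, a ligand of αv integrins, rose by 1.36 (0.0047), and CCN2, a matricellular growth factor that binds integrins, rose by 0.80 (0.0214). The collagen chain gene COL1A2, from the α2β1 ligand type I collagen, fell by 1.32 (0.00311), with a difference of −2.58 from that processed signal, and the laminin chain gene LAMB1 fell by 0.42 (0.027), a call lost with slide as a term (−0.26, limma adjusted p = 0.631). Over all tested probes 5.5% were higher and 5.32% lower, and the median over the 20 ligand genes was −0.07.

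None of the 4 hemidesmosome partners was called by limma in the main fit, and 0 had an unadjusted p under 0.05 there. That count was 2 without CYGB+ replicate 1 and 2 with that replicate from its second array alone. With the replicate block as well it was 3. The share of all tested probes at that unadjusted p was not counted in any fit. In the main fit the most intense were as follows. CD151, a tetraspanin that binds laminin-binding integrins, was at −0.24 (limma adjusted p = 0.253) and COL17A1, the type XVII collagen of the hemidesmosome, at −0.01 (0.978), while α6 probe 2 and ITGB4 were lower. With slide as a term CD151 was at −0.97 (limma adjusted p = 0.0391).

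Of 22 talin, kindlin and focal adhesion adaptor genes, 2 were higher and 4 lower, beside 5.5% and 5.32% of all tested probes. TNS4, a tensin that binds β integrin tails, was at 9.92, 10.07 and 10.43 in NCE and at 8.07, 8.45 and 8.04 in CYGB+, and at −1.95 ± 0.17 (SE, limma adjusted p = 0.00382) its fall was larger than that of any integrin probe. PARVA and LIMS1, which encode the parvin and PINCH partners of integrin-linked kinase, fell by 0.80 (limma adjusted p = 0.0136) and 0.60 (0.0312), and VCL, which encodes vinculin, fell by 0.51 (0.0359). PTK2, the focal adhesion kinase gene, was at 0.37 (0.045), a call lost with the replicate block (limma adjusted p = 0.0615) and kept in 0 of the 6 limma fits that left out a replicate. FERMT2, which encodes kindlin-2, was at 0.49 (0.0486) by its more intense probe, a call lost with the replicate block (0.0577), and at −0.56 (0.0288) by the other, so its direction is uncertain.

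Of 14 integrin inhibitors and surface partners tested, out of 15, 1 was higher and 1 lower, beside 5.5% and 5.32% of all tested probes. SLC3A2, which encodes the CD98 heavy chain that binds β integrin tails, rose by 0.96 (limma adjusted p = 0.00775), and CD82, a tetraspanin that restrains integrin-based motility, fell by 1.11 (0.013). Over the 5 related lists 7 genes were higher and 7 lower of 67 tested, beside 5.5% and 5.32% of all tested probes. Counted in the same way, by the most intense probe, 3 of the 10 epithelial subunit genes were lower and 0 higher. The other 7, ITGA6 among them, were not called, and the contrast with the related lists was not tested. With slide as a term 8 of the 14 related genes called kept their call: NPNT, SPP1, CCN2, SLC3A2, COL1A2, TNS4, VCL and CD82.

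**Figure D4:**
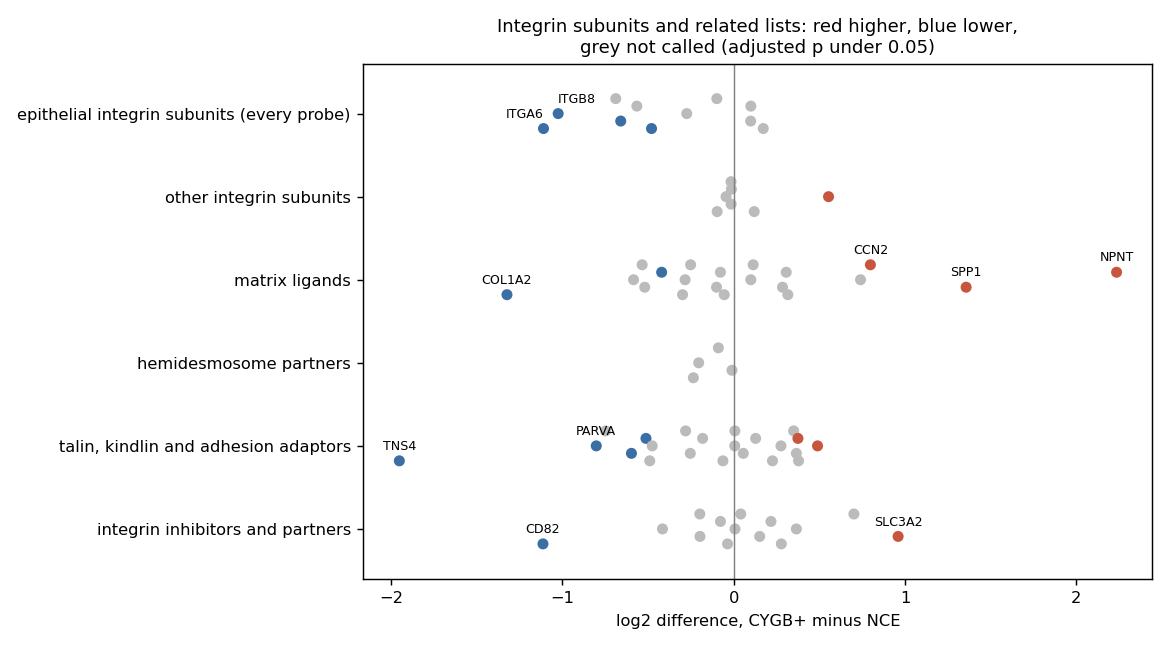
Log2 difference, CYGB+ minus NCE (horizontal axis), for every integrin probe and for the most intense probe of each tested gene in the 5 related lists, in red where higher, blue where lower and grey where not called. The calls of the epithelial integrin subunits lie on the lower side, and that of ITGB2, among the other integrin subunits, on the higher side. The ligands and adaptors have calls on both.

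The cells carried the markers of squamous epithelium. All 10 of the squamous markers were tested, among them KRT5, KRT14 and TP63, and 1, KRT6A, fell, by a log2 difference of −0.46 (limma adjusted p = 0.0448). Of 8 fibroblast markers 1 was tested, FAP, which was higher by 0.56 (limma adjusted p = 0.0404), and the other 7, DCN and COL3A1 included, were not above background on enough arrays. Of 8 leukocyte markers 3 were tested, with CD14 at −0.46, CD68 at 0.22 and ITGB2 itself the 1 called. Beside these marker calls, 5.5% of all tested probes were higher and 5.32% lower. The part of these markers in the integrin differences was not tested. In bulk RNA, fewer cells that carry a subunit and less of its RNA in each cell cannot be told apart.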

How the data were processed

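Total RNA (50 ng) was labelled with cyanine 3 and hybridised to Agilent 2-colour arrays. The deposited scanner files, from Agilent Feature Extraction 10.7.3.1 per the file headers, gave the green intensity of each spot and its local background, both before normalisation. The authors then quantile-normalised their values. A table of 15040 probes of log2 values deposited by the authors, whose centring and scale stay unknown (column medians −0.16 to 0.18), served as an alternative and listed 9 of the 11 integrin probes.

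Green median intensity was background-corrected with normexp (offset 50), log2-transformed and quantile-normalised in limma 3.58.1 (R 4.3.3). The mean intensity had been planned, but the files held the median. Outlier spots and control spots were left out, spots of a probe averaged, and arrays averaged within each biological replicate. The 22328 of 42405 probes well above background on at least 6 of 15 arrays were fitted with lmFit and eBayes, with Benjamini-Hochberg adjustment over all of them (threshold 0.05). Slide was fitted as a term over single arrays, with the biological replicate as a random block (duplicateCorrelation). The fit was also run on simulated independent values, without slides, repeat arrays or an outlying array. That run does not bear on these features of the data. Of 27310 probes with a RefSeq accession, 25422 matched a gene in the RefSeq table used (GRCh38.p14). For genes with several probes in the related lists the most intense probe was counted, and up to 6 called genes of each list were named, or the 2 most intense where none was called. The members and lists were chosen with earlier results of these data known. No arrays held identical values. The number of arrays limits the precision, and because nothing says that the 3 RNA collections were separate cultures, p-values measure the spread between these samples only.

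Deviations from the group means of same-numbered NCE and CYGB+ replicates correlated across probes at 0.21, 0.23 and 0.30, each above 0.1. The main fit was unpaired, and the numbers, from the labels, paired the samples only in the fits with the replicate block. The correlation was not specific to matching numbers. Of the 6 pairs with different numbers, NCE 2 with CYGB+ 3 correlated at 0.29, NCE 1 with CYGB+ 2 at 0.21 and NCE 3 with CYGB+ 1 at 0.16. The other 3 were at −0.50 to −0.41. Whether the numbers pair the samples is thus not settled. Alternatives covered background correction, scaling, the filter, outlier spots, the replicate block, slide, the methods' t-test, the deposited log2 table and each replicate left out. All tests were two-sided. The red channel was not used, since the labels name no RNA for it.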

Additional observations from a re-analysis of the deposited data

Results flagged for a closer look

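Over the 24 sets of arrays examined (each integrin and CYGB probe within each group), 4 held an array far from the rest by Dixon's criterion. For independent values about 1 set in 20 meets it. These sets shared arrays and held repeats of the same replicates, so the 4 cannot be set against that rate. Array 2 of NCE replicate 3 was the lowest NCE array for ITGA3, at 10.701 against 11.44 for the next, and for ITGB8, at 8.30 against 8.51. Array 1 of CYGB+ replicate 1 was the lowest CYGB+ array for both ITGA6 probes, at 11.11 against 11.99 for probe 1 and at 9.16 against 10.34 for probe 2. For ITGB8 that NCE array still lay above the highest CYGB+ array, at 7.77.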

How the results depend on the processing

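No result changed direction past the threshold. ITGB8 kept its lower call in every fit except the methods' t-test (adjusted p = 0.0562) and slide 2 alone, which had 1 NCE array and its spread taken from the CYGB+ replicates. The adjusted p of ITGB8 in the other limma fits was 4.86e-06 to 0.0434. Those include the fits over single arrays with 1 correlation between repeats for all probes, where the p-value may be too small. No probe of the epithelial integrin subunits was called higher in any fit. At an unadjusted p under 0.05, 1 of them was higher in the random block and without CYGB+ replicate 1. The same held in both fits with that replicate's second array alone. How many of all tested probes passed that unadjusted p was not counted. The 4 lower integrin probes numbered 1 with the processed signal scaled to the 75th percentile, 2 with the processed signal quantile-normalised, 1 with no filter on dim probes, 1 with slide as a term, 0 on slide 2 alone (1 at an unadjusted p under 0.05), 0 by the methods' t-test (4 at an unadjusted p under 0.05), and 1 to 3 with each replicate left out.

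Over all probes, 1227 higher and 1188 lower became 810 and 714 with the processed signal scaled to the 75th percentile, 789 and 715 with normexp scaled to the 75th percentile, 281 and 449 with slide as a term, 3 and 2 on slide 2 alone, 2462 and 2389 with arrays and the replicate as a random block, 353 and 307 by the t-test, 764 and 680 in the deposited log2 table, and 234 to 1264 and 246 to 1134 with a replicate left out. In alternatives chosen after seeing the data, with CYGB+ replicate 1 from its second array alone the counts were 2089 and 2019, and with the replicate block as well 3161 and 3013.

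Over the related genes, 7 higher and 7 lower became 4 and 3 with the processed signal scaled, 4 lower with it quantile-normalised, 4 higher with normexp scaled, 4 higher with the strict filter on all arrays, 4 higher with slide as a term, 0 and 0 on slide 2 alone, 12 and 14 with the random block, 2 and 3 by the t-test, 2 lower in the deposited table, 3 to 5 and 2 to 8 with a replicate left out, 11 lower with the second array alone, and 14 and 16 with the block as well. With the replicate block 11 related genes were lower, FERMT2 and PTK2 lost their calls, ITGA2 gained one, and no other integrin call changed; the block gave 1456 higher and 1477 lower probes. The gap between the ITGA6 probes, 0.54, was 0.098 with slide as a term and 0.076 on slide 2 alone.

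Among the fits that left out a replicate, those without NCE replicate 2 or 3 gave the fewest calls over all probes. Fold sizes of dim probes depend on the background step: with the processed signal scaled to the 75th percentile ITGB8 moved from −1.03 to −1.53, ITGB6 from −0.48 to −1.19, COL1A2 from −1.32 to −2.58 and NPNT from 2.23 to 5.71.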
